A study of Homo sapiens with 6 samples.

Results

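The adenosine pathway of the vessel wall was examined in endothelium at the start of blood formation, through 10 genes chosen by their known roles: NT5E (CD73) and ENTPD1 (CD39), which make adenosine outside the cell; ADA and ADK, which remove it; the receptors ADORA1, ADORA2A and ADORA2B; DPP4, which holds ADA at the cell surface; and the nucleoside transporters SLC29A1 and SLC29A2. They are 10 of the 58364 gene entries with values and were not chosen by a rule on levels. Earlier results of these data were known at the choice. Counts among the 10 beside shares of all genes are thus a description only. RNA-seq had been made from 6 libraries of the H1 human embryonic stem cell line on day 8 of hematopoietic differentiation, 2 of wild-type (WT) cells and 4 of cells labelled MSX2-/-. MSX2 encodes a homeobox transcription factor. The series asks what its loss does to the transition from endothelium to blood, and the comparison it implies is MSX2-/- against WT.

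Both groups were H1 cells taken through the same culture, activin A and BMP4 first and then VEGF and bFGF. They were sorted for CD31 (PECAM1), an adhesion molecule of endothelium. The labels' culture notes also mention HAND1 overexpression, which the methods of the study do not. The labels state the sort only for the MSX2-/- libraries, and the methods of the study state it for WT as well. MSX2-/- cells carried a CRISPR/Cas9 frameshift in MSX2, made with a lentivirus and a guide to its second exon, and were grown from single cells after puromycin selection. The 4 libraries are 2 replicates of each of 2 clones, called 1# and 2#, so they represent 2 editing events in 1 cell line. WT and both clones share replicate numbers 1 and 2, and the labels give each number its own set letter without saying what a set is. Nothing states that replicates came from separate cultures, and p-values then measure only the spread between these libraries.

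Adenosine signaling begins with ATP released from cells. CD39 cuts ATP and ADP to AMP, and CD73 cuts AMP to adenosine, which acts on G-protein-coupled receptors: the ADORA1 receptor lowers cyclic AMP, while those of ADORA2A and ADORA2B raise it. The signal ends when adenosine is taken up through equilibrative transporters and is deaminated to inosine by adenosine deaminase or phosphorylated back to AMP by adenosine kinase. CD73 is also a surface marker in this system, where it is used to separate endothelium without blood-forming capacity from hemogenic endothelium.

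Promoter windows of NT5E, ENTPD1 and ADORA1 are shown because these are the members that differed between the genotypes without further adjustment, and because MSX2 is a homeodomain protein, a class that recognizes TAAT cores. Each is 250 bases before a RefSeq transcription start in build GRCh38.p14, read 5′ to 3′ on the plus strand, in lower case with every TAAT or its reverse complement ATTA in capitals. NT5E lies at chr6:85449833-85450082, the first of 5 ENTPD1 windows at chr10:95755913-95756162 and ADORA1 at chr1:203127476-203127725. All 3 lie inside the span that the GENCODE 29 annotation gives the gene, so other annotated transcripts start farther upstream.
NT5E: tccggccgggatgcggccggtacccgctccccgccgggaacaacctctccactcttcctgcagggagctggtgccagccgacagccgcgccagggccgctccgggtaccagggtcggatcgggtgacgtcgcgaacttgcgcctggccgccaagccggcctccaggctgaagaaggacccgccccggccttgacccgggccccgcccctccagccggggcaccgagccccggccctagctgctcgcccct
ENTPD1: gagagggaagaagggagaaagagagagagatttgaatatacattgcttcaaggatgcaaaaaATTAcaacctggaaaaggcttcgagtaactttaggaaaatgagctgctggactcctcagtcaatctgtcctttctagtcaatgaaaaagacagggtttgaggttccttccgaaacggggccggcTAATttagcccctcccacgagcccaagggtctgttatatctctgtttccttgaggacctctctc
ADORA1: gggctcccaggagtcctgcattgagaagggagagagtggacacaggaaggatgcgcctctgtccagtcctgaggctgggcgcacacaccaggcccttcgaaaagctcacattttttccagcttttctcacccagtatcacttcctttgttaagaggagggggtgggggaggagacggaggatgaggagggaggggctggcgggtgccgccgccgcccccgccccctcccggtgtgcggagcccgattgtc
The capitals occur 2 times in this ENTPD1 window and 0 times in those of NT5E and ADORA1. The NT5E window is rich in CpG, with 28 of these dinucleotides and a GC content of 75.2%, against 12 in ADORA1, 5 in ENTPD1 and a median of 11 over 35116 RefSeq windows.

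RefSeq windows were found for 8 of the 10 members, 14 windows in all. The longer homeodomain word TAATTG, searched with its reverse complement CAATTA and containing the TAAT core, occurred in 0 of the 14, and in 6.7% of all windows. The core itself occurred in 5 of the 14 windows, and in 47.4% of all windows. Of those 5, 4 belonged to ENTPD1 and 1 to ADK. The 5 ENTPD1 windows held 2, 0, 5, 4 and 1 cores and from 0 to 21 CpG, so the one printed does not stand for all. GGAA or TTCC, the core of ETS factors that act in endothelium, occurred in 14 of the 14, and in 92.7% of all windows. A match describes the letters of a window and is not a binding site, and no match says only that the letters are not in that window.

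MSX2, the targeted gene, was measured first. Its levels were 3.64 and 1.44 FPKM (a read density for each kilobase of transcript that takes library size into account) in WT replicates 1 and 2, 18.0 and 5.62 in 1# and 31.8 and 6.69 in 2#. The mRNA was thus higher in each library labelled MSX2-/- than in both WT libraries. The log2 difference was 1.99 ± 0.687 (SE, limma, adjusted p = 0.309) over groups and 1.99 ± 0.282 (adjusted p = 0.0107) with the replicate number as a block. A frameshift need not lower an mRNA, and FPKM over the whole gene shows nothing of the edited bases, so MSX2 does not check the labels and every direction below rests on them.

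Relative depth, read from the lowest values of the table, ranged from 1 to 1.18 times that of WT replicate 1. CD31 itself ranged from 186 to 258 FPKM over all libraries. The summed level of 12 endothelial markers was 3412 to 4179 FPKM in WT and 2259 to 3477 FPKM in MSX2-/-, and 3 of the 12 (CDH5, TIE1 and CLDN5) fell. Of 10 blood markers tested out of 11, 1 (GFI1) rose, and the 11 summed to 82.6 to 126 FPKM in WT and 157 to 214 in MSX2-/-, with PTPRC at no more than 0.115. Mesenchymal markers summed to 1057 to 1406 against 1267 to 1421 FPKM, with 2 of 10 tested higher (COL1A1 and TAGLN), pluripotency markers to 65.1 to 74.9 against 85.2 to 102.0 (0 of 6), hepatic and gut endoderm markers to 206 to 312 against 331 to 549 (0 of 8), and T and NK lymphocyte markers to 1.38 to 1.55 against 1.84 to 4.41 (0 of 2). Of all genes tested, 0.963% were called higher and 0.321% lower in this fit. With the replicate number as a block, which compares libraries of the same number, 8 of the 12 endothelial markers were lower. Higher were 5 of 10 blood, 5 of 10 mesenchymal, 2 of 8 endoderm and 1 of 6 pluripotency markers. Of all genes, 6.11% were then called higher and 3.74% lower. ENG, 1 of the 5 mesenchymal markers higher with the block, was at 90.9 and 91.0 FPKM in WT and 129 to 160 in MSX2-/-. SOX17, listed with endoderm but shared with endothelium, was at 165 and 241 FPKM in WT and 201 to 353 in MSX2-/-. It was 1 of the 2 endoderm markers higher with the block, CDH1 being the other. ALB was at 20.7 and 44.8 FPKM in WT, 122 and 125 in 1# and 15.3 and 0 in 2#. THY1 was the largest part of the mesenchymal sum, at 687 and 978 FPKM in WT and 603 to 717 in MSX2-/-. COL1A1 went from a mean of 41.8 to 198. No marker of any list was listed at 0 in all 6 libraries. In bulk samples, fewer cells of a type and less RNA per cell cannot be told apart, and the part of these cell types in the results on the 10 genes was not tested.

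**Figure D1:**
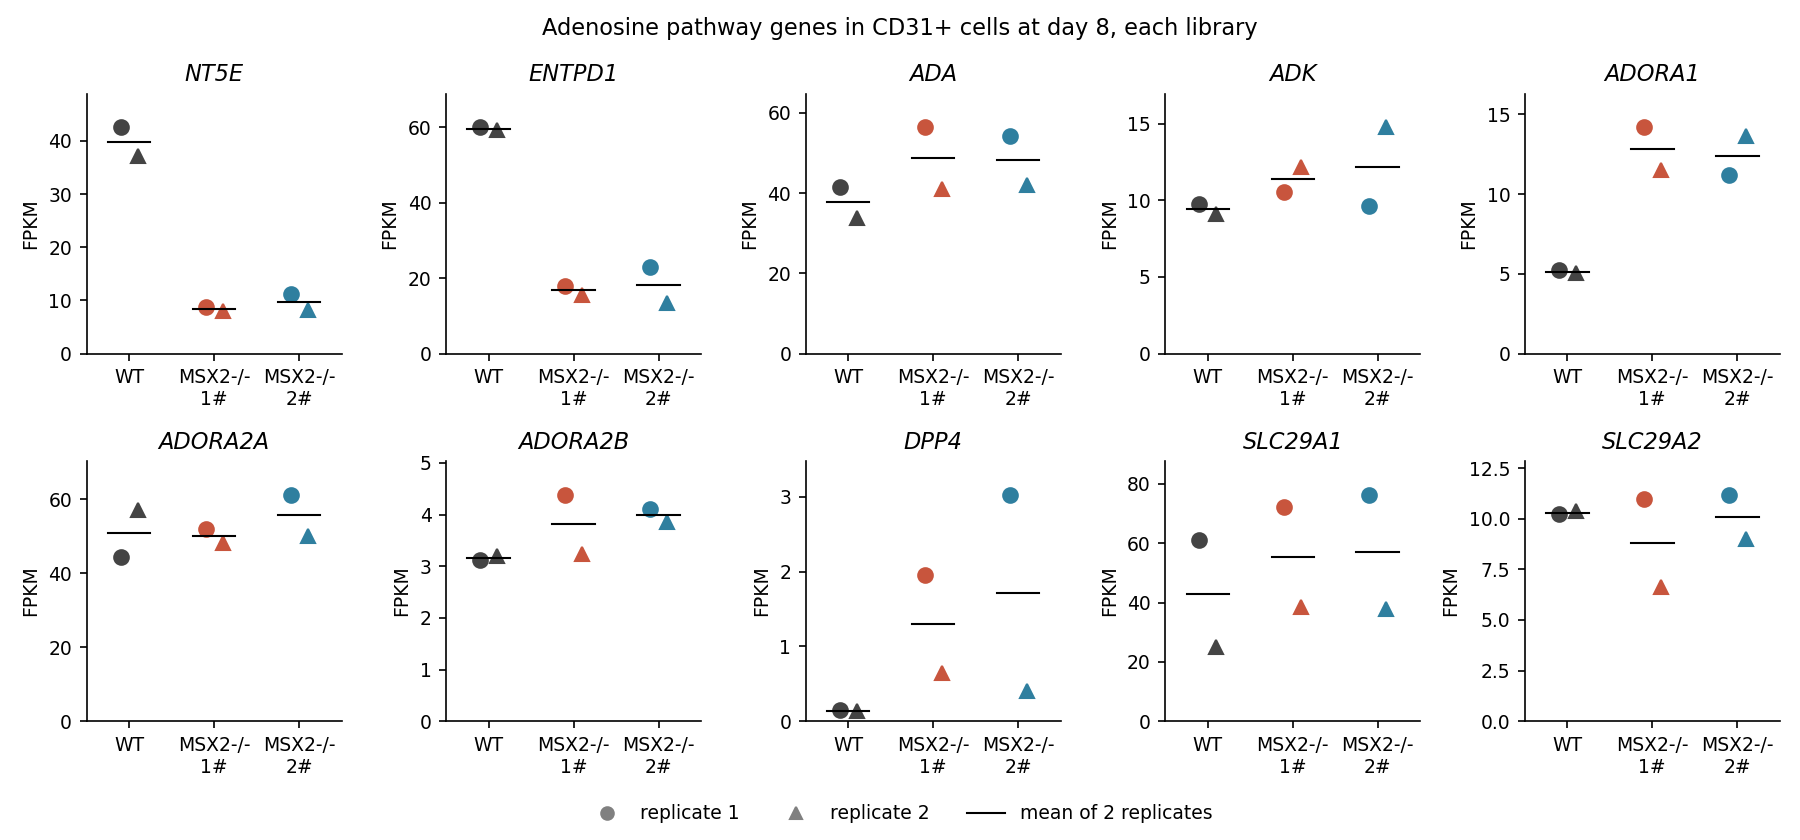
FPKM of each of the 10 genes (1 panel a gene, linear axes from 0) in the 2 WT libraries and in the 2 replicates of each MSX2-/- clone, 1# and 2#, with circles for replicate 1, triangles for replicate 2 and lines for the mean of each pair. The 4 MSX2-/- libraries sit below both WT libraries for NT5E and ENTPD1 and above both for ADORA1, ADORA2B and DPP4, and the other 5 panels overlap.

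NT5E and ENTPD1, whose enzymes act in sequence to make adenosine outside the cell, fell in MSX2-/-. ADORA1, whose receptor lowers cyclic AMP, rose. So did ALPL, which is outside the 10 genes and encodes another surface enzyme that can cut AMP. NT5E went from a mean of 39.9 ± 3.77 FPKM (SD, n = 2) to 9.04 ± 1.49 (SD, n = 4), 4.41 times lower, and ENTPD1 from 59.6 ± 0.504 (SD, n = 2) to 17.5 ± 4.12 (SD, n = 4), 3.41 times lower. ADORA1 went from 5.15 ± 0.122 FPKM (SD, n = 2) to 12.6 ± 1.5 (SD, n = 4), 2.45 times higher. Of the 10 genes, all of which passed the filter on low values, 1 was called higher and 2 lower (limma, adjusted p under 0.05), where 0.963% of the 15895 genes tested were called higher and 0.321% lower. The median log2 difference of the 10 genes was 0.26, and that of all genes tested was 0.01.

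With the replicate block the called genes became 5, with ADA and SLC29A1 added to the higher ones. That is 3 higher and 2 lower, where 6.11% and 3.74% of all genes were called. By levels alone, 3 genes (ADORA1, ADORA2B and DPP4) were above both WT libraries in all 4 MSX2-/- libraries, as were 12.1% of all genes, and 2 (NT5E and ENTPD1) were below both, as were 9.19%. In the 4 comparisons of an MSX2-/- library with the WT library of its number, 7 genes kept 1 direction, 5 of them higher (ADA, ADORA1, ADORA2B, DPP4 and SLC29A1) and 2 lower (NT5E and ENTPD1). Of all genes tested, 23.6% were higher and 21.4% lower in all 4 of these comparisons. DPP4 passed the filter on low values only through its MSX2-/- libraries, so its place among the higher genes was largely set by that filter.

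**Figure D2:**
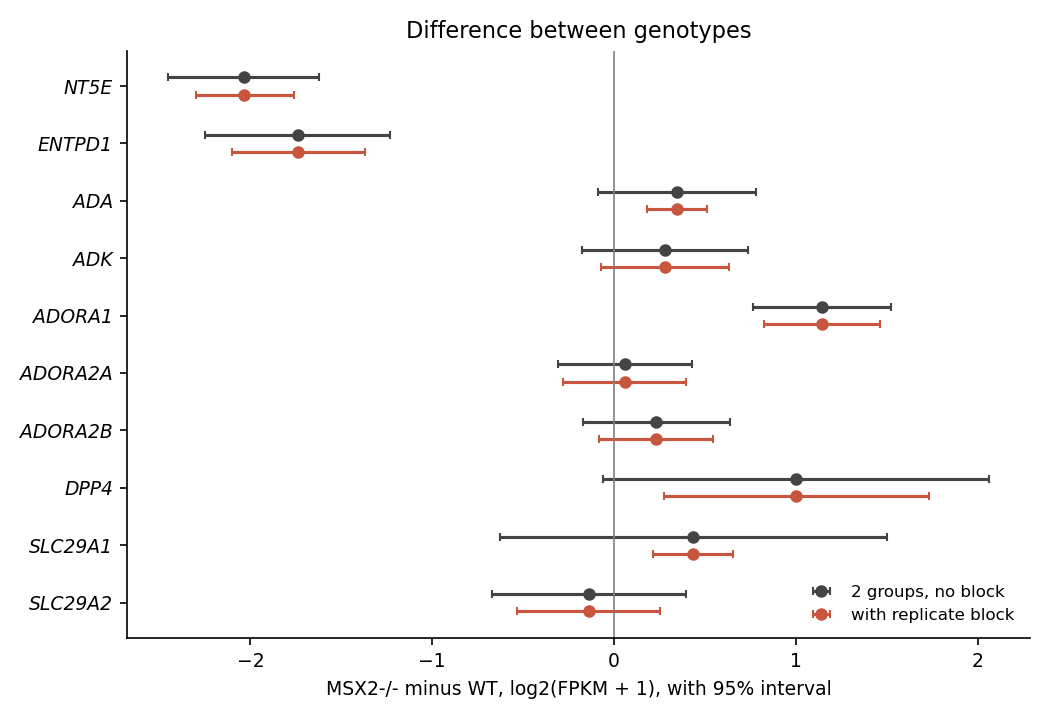
Log2 difference of MSX2-/- from WT on the log2(FPKM + 1) scale for the 10 genes, with 95% intervals of the fits that leave out or include a term for replicate number. NT5E and ENTPD1 lie below 0 and ADORA1 above 0 in both fits, and the intervals of ADA, DPP4 and SLC29A1 clear 0 only with the block, DPP4 without passing the adjusted test.

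NT5E encodes CD73, the GPI-anchored 5′-nucleotidase that turns AMP into adenosine. It lies on the plus strand at chr6:85449584-85495791 (GRCh38, GENCODE 29), and no other annotated gene overlaps it. Its levels were 42.5 and 37.2 FPKM in WT replicates 1 and 2, 8.81 and 7.93 in 1# and 11.2 and 8.21 in 2#. The WT libraries were both high and close together, the MSX2-/- libraries all low, and the groups did not overlap. On the log2(FPKM + 1) scale the difference was −2.03 ± 0.173 (SE, 95% interval −2.45 to −1.62, limma, adjusted p = 0.01). Against the WT library of the same number the 4 differences were −2.15, −2.10, −1.83 and −2.05, so each clone and each replicate number gave nearly the same step.

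ENTPD1 encodes CD39, the ectonucleoside triphosphate diphosphohydrolase that supplies AMP to CD73. In WT it had the highest mean FPKM of the 10 genes, although SLC29A1 exceeded it in replicate 1. Its levels were 59.9 and 59.2 FPKM in WT, 17.9 and 15.7 in 1# and 23.0 and 13.3 in 2#. Both WT libraries were nearly equal, every MSX2-/- library was lower, and the MSX2-/- libraries spread more among themselves than WT. ENTPD1 differed on the log2 scale by −1.74 ± 0.212 (SE, 95% interval −2.25 to −1.23, limma, adjusted p = 0.0208). An antisense gene, ENTPD1-AS1, shares 454 exon bases with it and ranged from 2.43 to 3.59 FPKM. Whether strand was used in the quantification is not given in the sources used here, so reads in those bases cannot be told apart.

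ADORA1 encodes the A1 receptor, coupled to inhibitory G proteins. Its levels were 5.24 and 5.07 FPKM in WT, 14.2 and 11.5 in 1# and 11.2 and 13.7 in 2#. All 4 MSX2-/- libraries exceeded both WT libraries, with no order between the clones. On the log2 scale ADORA1 differed by 1.14 ± 0.158 (SE, 95% interval 0.764 to 1.52, limma, adjusted p = 0.0318).

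These calls differed in how firmly they stood. Leaving out 1 library at a time, NT5E was called in 4 of 6 fits (adjusted p 0.023 to 0.075, missed without WT replicate 1 at 0.075 and without 1# replicate 1 at 0.0527), ENTPD1 in 1 of 6, that without 2# replicate 1 (0.0275 to 0.167), and ADORA1 in 0 of 6 (0.0645 to 0.179). With the block the same omissions left NT5E and ENTPD1 called in 6 of 6 fits and ADORA1 in 4 of 6, missed at 0.0508 and 0.0501 without WT replicate 1 or 2. In a fit of 3 groups none of these 3 genes passed (limma, adjusted p = 0.0621, 0.0885 and 0.117), and with no filter on low values ENTPD1 and ADORA1 missed at 0.057 and 0.0507. The differences themselves moved little, between −2.13 and −1.94 for NT5E, −1.87 and −1.63 for ENTPD1 and 1.09 and 1.19 for ADORA1 without the block.

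The ratio of NT5E to ADA within a library sets the enzyme that makes adenosine against the one that deaminates it, and does not depend on how libraries are scaled. It was 1.02 and 1.10 in WT, 0.156 and 0.193 in 1# and 0.206 and 0.195 in 2#. The 2 mRNAs were thus at near-equal FPKM in WT, and ADA was several times above NT5E in every MSX2-/- library. The mean log2 ratio was 0.08 ± 0.072 (SD, n = 2) in WT and −2.42 ± 0.176 (SD, n = 4) in MSX2-/- (exact permutation test, two-sided, p = 0.0667, the smallest that 15 splits of 6 libraries allow).

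NT5E was also lower relative to ENTPD1 in MSX2-/-, and the groups did not overlap. The ratio was 0.71 and 0.628 in WT, 0.492 and 0.507 in 1# and 0.487 and 0.615 in 2#, with 2# replicate 2 close to WT. The mean log2 ratio was −0.58 ± 0.124 (SD, n = 2) in WT and −0.94 ± 0.158 (SD, n = 4) in MSX2-/- (exact permutation test, two-sided, p = 0.0667, again the smallest possible), so this design could not pass 0.05 for either ratio.

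**Figure D3:**
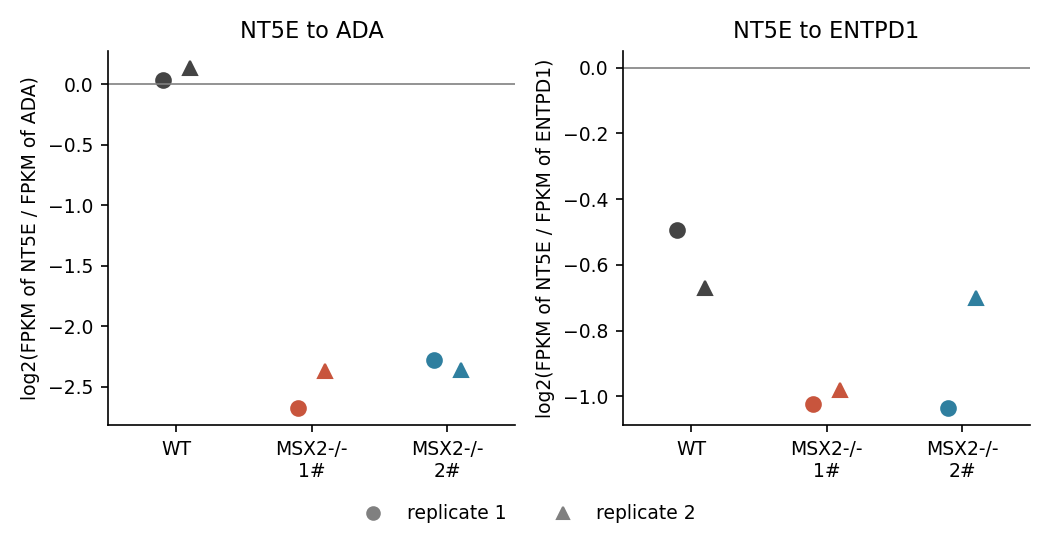
Log2 ratio of FPKM within each library, NT5E to ADA and NT5E to ENTPD1, for 2 WT and 4 MSX2-/- libraries, with circles for replicate 1 and triangles for replicate 2. For NT5E to ADA the WT libraries lie near 0 and the MSX2-/- libraries between −2.68 and −2.28, and for NT5E to ENTPD1 the groups come close at −0.67 in WT and −0.70 in 2# replicate 2.

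ADA encodes adenosine deaminase, which converts adenosine to inosine inside the cell and, bound to DPP4, at its surface. Its levels were 41.6 and 33.9 FPKM in WT, 56.4 and 41.1 in 1# and 54.2 and 42.1 in 2#. The groups overlapped, since WT replicate 1 was above 1# replicate 2, yet within a replicate number both clones were above WT. ADA differed by 0.35 on the log2 scale, with an SE of 0.181 without the block (95% interval −0.0881 to 0.779, limma, adjusted p = 0.553) and an SE of 0.0688 with it (0.179 to 0.512, adjusted p = 0.031). With the block, ADA was called in 0 of the 6 fits that left out 1 library (adjusted p 0.0685 to 0.127). ADA shares 46 exon bases with PKIG on the other strand, which was at 115 to 144 FPKM.

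ADK encodes adenosine kinase, which returns adenosine to AMP. Its levels were 9.76 and 9.08 FPKM in WT, 10.6 and 12.2 in 1# and 9.65 and 14.8 in 2#. The groups overlapped through 2# replicate 1, and 3 of the 4 MSX2-/- libraries were above the WT library of their number. The log2 difference of 0.28 did not pass the test (95% interval −0.177 to 0.738, limma, adjusted p = 0.688).

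Of the receptors that raise cyclic AMP, neither passed the test. ADORA2A had the second highest mean FPKM of the 10 genes in both genotypes, at 44.5 and 57.2 FPKM in WT, 51.9 and 48.1 in 1# and 61.2 and 50.1 in 2#. Both clones were above WT in replicate 1 and below it in replicate 2, and the groups overlapped. Its log2 difference was 0.06 (95% interval −0.31 to 0.428, limma, adjusted p = 0.955). A readthrough gene, SPECC1L-ADORA2A, shares 2380 exon bases with ADORA2A and was at no more than 0.156 FPKM, so the division of reads between them leaves the level of ADORA2A uncertain.

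ADORA2B, the receptor of low affinity, was at 3.12 and 3.20 FPKM in WT, 4.38 and 3.25 in 1# and 4.12 and 3.85 in 2#. All 4 MSX2-/- libraries were above both WT libraries, 1# replicate 2 by a very small margin. In log2 terms the difference was 0.23 (95% interval −0.173 to 0.635, limma, adjusted p = 0.714). Among the 3 receptors the order of mean FPKM was the same in both genotypes, ADORA2A over ADORA1 over ADORA2B, and ADORA1 and ADORA2B stood at 5.15 and 3.16 FPKM in WT and at 12.6 and 3.90 in MSX2-/-. The fourth adenosine receptor, ADORA3, was at no more than 0.162 FPKM in any library and was not tested.

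DPP4 encodes CD26, a surface dipeptidyl peptidase that also binds ADA. Its levels were 0.148 and 0.133 FPKM in WT, 1.95 and 0.639 in 1# and 3.03 and 0.400 in 2#. All 4 MSX2-/- libraries were higher, those of replicate 1 by far the most, and the gene passed the filter on low values only through them. The log2 difference was 1.0 ± 0.444 (SE, 95% interval −0.0596 to 2.06, limma, adjusted p = 0.462), and 0.0932 with the block. On this scale the added 1 FPKM understates the change of so low a gene.

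SLC29A1 encodes ENT1, the main equilibrative transporter that takes adenosine into endothelial cells. Its levels were 61.0 and 25 FPKM in WT, 72.1 and 38.6 in 1# and 76.3 and 37.8 in 2#. Every replicate 1 library was high and every replicate 2 library low, and within each number both clones were above WT. The groups overlapped, and the log2 difference was 0.44 with an SE of 0.445 without the block (95% interval −0.629 to 1.5, limma, adjusted p = 0.831) and an SE of 0.091 with it (0.215 to 0.656, adjusted p = 0.0359). Without the block the difference ran from −0.19 without WT replicate 2 to 1.06 without WT replicate 1, and with the block the call stood in 1 of 6 fits that left out 1 library (adjusted p 0.0376 to 0.138).

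SLC29A2 encodes ENT2, the second transporter of this kind. Its levels were 10.2 and 10.4 FPKM in WT, 11 and 6.62 in 1# and 11.2 and 8.98 in 2#. The MSX2-/- libraries lay on both sides of WT, above it in replicate 1 and below it in replicate 2. The log2 difference was −0.14 (95% interval −0.671 to 0.394, limma, adjusted p = 0.918). An antisense gene, AP001107.9, shares 279 exon bases with SLC29A2 and ranged from 0.119 to 2.35 FPKM.

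Levels of some members also differed between replicate numbers, and so between sets, in a smaller share than over all genes. In a fit with genotype as a covariate, 2 of the 10 genes differed between replicate 2 and replicate 1, ADA (−0.36, limma, adjusted p = 0.00891) and SLC29A1 (−1.04 ± 0.0858, SE, adjusted p = 0.00114), both lower in replicate 2, where 34.6% of all genes tested were called. SLC29A1 averaged 69.8 FPKM in the 3 libraries of replicate 1 and 33.8 in those of replicate 2. It was the 1 member whose libraries separated wholly by number, as did 41.5% of all genes. Of the 10 genes, 9 were lower in replicate 2 by estimate, ADK alone being higher (0.22, adjusted p = 0.252). NT5E and ENTPD1 differed between sets by −0.24 and −0.31 (adjusted p = 0.122 and 0.135), a small step beside that between genotypes, and ADORA1 by −0.02 (adjusted p = 0.924).

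**Figure D4:**
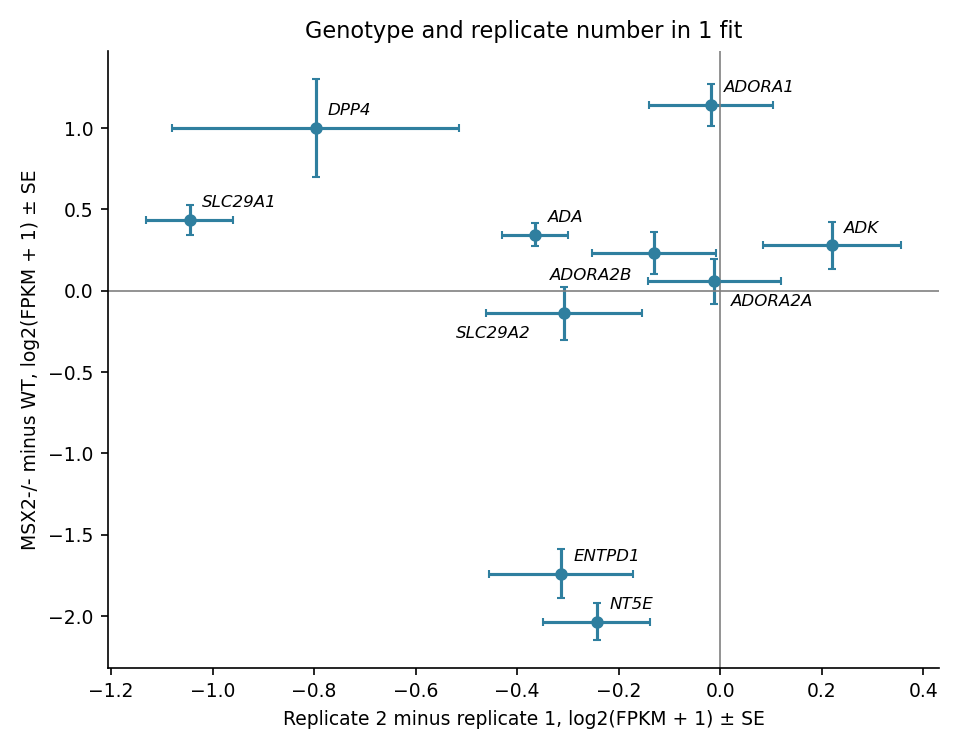
Log2 difference between genotypes (y axis) against log2 difference between replicate 2 and replicate 1 (x axis) for the 10 genes, both on the log2(FPKM + 1) scale from the fit with both terms, with SE bars. NT5E and ENTPD1 lie lowest, at −0.24 and −0.31 on the x axis, while SLC29A1 lies farthest left, at −1.04, with 0.44 on the y axis.

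The clones were compared with each other, since they stem from separate cells. Between 2# and 1#, 0 of the 10 genes were called by limma, with or without the block, as were 0% of all genes tested with the block, and 0 of the 10 had an unadjusted p under 0.05, where 3.33% of all genes had one with the block. The absolute log2 differences of the 10 genes ran from 0.01 to 0.21. For NT5E the difference was 0.18 (95% interval −0.136 to 0.495 with the block) and for ENTPD1 0.06 (−0.408 to 0.534). Differences between clones within those intervals were not excluded by these libraries. Each clone set alone against WT with the block gave NT5E at −2.12 for 1# and −1.94 for 2# (adjusted p = 0.00789 and 0.00847), ENTPD1 at −1.77 and −1.71 (0.0159 and 0.0165) and ADORA1 at adjusted p = 0.0326 and 0.0344. Without the block none of these passed (limma, adjusted p = 0.119 and 0.118 for NT5E, 0.173 and 0.177 for ENTPD1, 0.223 and 0.222 for ADORA1). These comparisons share the WT libraries.

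Whether the genotype difference depended on the replicate number was tested as an interaction. No gene of the 10 was called by limma, where 0.0189% of all genes were, and 3 had an unadjusted p under 0.05, as had 11.4% of all genes. These were ADORA2A (−0.55 ± 0.172, SE, adjusted p = 0.396), DPP4 (−1.17, adjusted p = 0.406) and SLC29A1 (0.32, adjusted p = 0.423). For NT5E the interaction was −0.08 (95% interval −0.685 to 0.521, adjusted p = 0.917).

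The order of the 10 mRNAs by mean FPKM, which is scaled to length, shows how the set of genes stood in each genotype. In WT it was ENTPD1, ADORA2A, SLC29A1, NT5E, ADA, SLC29A2, ADK, ADORA1, ADORA2B and DPP4. In MSX2-/- ENTPD1 stood in rank 4 and NT5E in rank 8, ADA in rank 3 and ADORA1 in rank 5. SLC29A1 was first by the mean, through the replicate 1 libraries. In both replicate 2 libraries of MSX2-/- it was below ADORA2A and ADA. Neighbours in the order often lie within their spread: in WT, SLC29A1 (25 to 61.0 FPKM), ADORA2A (44.5 to 57.2) and ADA (33.9 to 41.6) all overlapped NT5E or each other, and in MSX2-/- NT5E (7.93 to 11.2) overlapped SLC29A2 (6.62 to 11.2) and ADK (9.65 to 14.8).

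Beyond the 10 genes, a list of 91 others that handle extracellular nucleotides, adenosine or its receptors' signals was examined, and 65 of them passed the filter. Without the block 1 was called higher and 0 lower, and with it 6 higher and 4 lower, against the shares of all genes given above. Estimates were positive for 35 and negative for 30, with a median of 0.01. Among the 26 that did not pass were the ectoenzyme CD38 (0.103 FPKM on average), which consumes NAD, and the receptor ADORA3.

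Of the other enzymes at the cell surface, ALPL, tissue-nonspecific alkaline phosphatase, which can also cut AMP, rose. Its levels were 1.69 and 4.10 FPKM in WT, 9.07 and 13.3 in 1# and 12.2 and 12.8 in 2#, so the groups did not overlap. The log2 difference was 1.78 ± 0.289 (SE, limma, adjusted p = 0.047). The call stood in 1 of the 6 fits that left out 1 library, that without WT replicate 2 (adjusted p 0.0435, the others 0.107 to 0.197), and in 6 of 6 with the block. Without the block it was lost with no filter on low values (limma, adjusted p = 0.121) and with rescaling by median ratio (0.0516). ENPP1, an ectoenzyme that cuts ATP to AMP and pyrophosphate, was at 31.7 and 18.8 FPKM in WT, 10.3 and 6.18 in 1# and 14.1 and 5.57 in 2#. Its difference of −1.42 passed only with the block (adjusted p = 0.00383, and 0.198 without).

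Inside the cell, NT5M, a mitochondrial nucleotidase, and APRT, which salvages adenine to AMP, were higher with the block by 0.74 and 0.34 (adjusted p = 0.0207 and 0.021, against 0.234 and 0.444 without). PNP, the phosphorylase that acts on the inosine made by ADA, was the most abundant turnover enzyme of the list at 149 FPKM on average, and was higher in replicate 2 (0.73, adjusted p = 0.00196). Between genotypes it differed by 0.19 (adjusted p = 0.921, and 0.197 with the block).

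Among nucleotide receptors and routes of ATP release, the ADP receptor P2RY1 (−0.47, adjusted p = 0.0472 with the block and 0.276 without) and the connexin GJA4 (−0.71, 0.0323 and 0.0966) were lower with the block. GJA4, connexin 37 of arterial endothelium, was at 728 and 535 FPKM in WT, 338 and 412 in 1# and 366 and 409 in 2#, with no overlap. SLC17A9, the vesicular nucleotide transporter, was higher by 0.72 (0.0227 with the block, 0.122 without). The connexins GJA5 and GJA1, at 331 and 183 FPKM on average, passed in neither fit.

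Of 18 receptor effectors, all tested, 2 were called higher and 1 lower with the block, where 6.11% and 3.74% of all genes were. Without the block 0 were called. GNAI2, the inhibitory G protein subunit to which A1 couples, was at 444 and 443 FPKM in WT, 368 and 352 in 1# and 385 and 356 in 2#, a difference of −0.28 (adjusted p = 0.0283 with the block, 0.217 without). ADCY7, an adenylyl cyclase, was higher by 0.74 (0.0149, and 0.304 without). NR4A1, an immediate early nuclear receptor that cyclic AMP can induce, was at 8.10 and 22.1 FPKM in WT, 45.0 and 109 in 1# and 30.8 and 91.0 in 2#, a difference of 2.10 (0.00169, and 0.212 without), and was also higher in replicate 2 by 1.38 (adjusted p = 0.00219). GNAS, the stimulatory subunit to which ADORA2A and ADORA2B couple and the most abundant gene of the list at 988 FPKM, differed by −0.03 (95% interval −0.299 to 0.246).

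**Figure D5:**
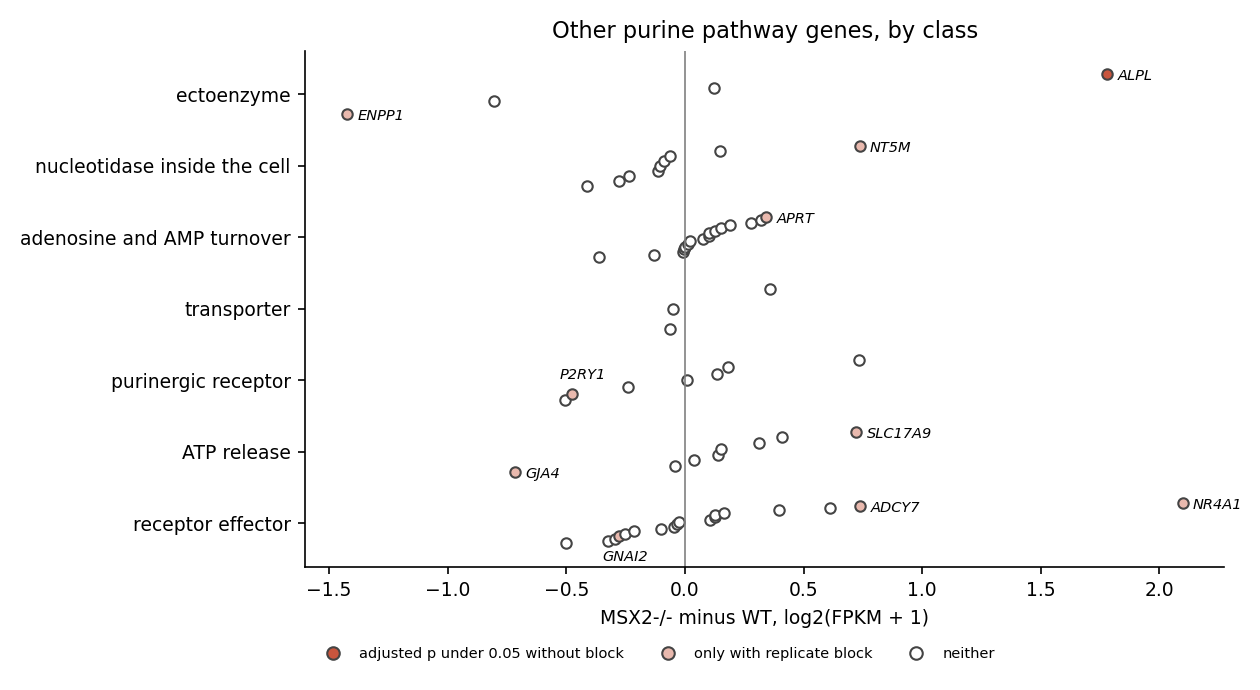
Log2 difference of MSX2-/- from WT for the 65 tested genes of the wider list, by class, with genes called without the block, with it only, or in neither fit marked apart. Most points lie close to 0, and ALPL, NR4A1 and ENPP1 lie farthest from it among the genes called in either fit.

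The 5 genes whose levels followed NT5E most closely, by Pearson r of log2(FPKM + 1) over the 6 libraries among 10587 genes of sufficient level, were SHE (0.998), NFE2L1 (0.998), PRCP (0.998), WDR37 (0.996) and MAF (0.996). The points share libraries and fall into the same 2 genotype groups, so these values mostly describe that split. All 5 were below both WT libraries in all 4 MSX2-/- libraries, as were 9.19% of all genes. Choice by r to NT5E, itself split in this way, largely fixed that outcome. MAF, a basic leucine zipper transcription factor, was at 53.1 and 39.4 FPKM in WT, 8.93 and 8.74 in 1# and 10.9 and 9.17 in 2#, a log2 difference of −2.17 beside the −2.03 of NT5E. PRCP differed by −0.87, NFE2L1 by −0.60 and WDR37 by −0.26 (limma, adjusted p = 0.541).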

How the data were processed

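RNA-seq of 2 WT and 4 MSX2-/- libraries of differentiating H1 cells was analysed. The authors deposited 1 table of FPKM values, 1 column a library, with replicates not pooled. The series text names TopHat and Cufflinks, and the submitters' processing notes list BWA, Bowtie, RSEM and hg19, so the quantification that made the FPKM values is not settled. Versions and the annotation are not given in the sources used here. The numbers of reads are unknown, so no counting interval is given. The labels number the clones differently from the table, whose names 1# and 2# were used. HAND1 overexpression is mentioned in the labels' culture notes and absent from the methods of the study.

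Of 58364 gene entries, the 15895 averaging 0.5 FPKM or more across libraries were tested on log2(FPKM + 1) with limma 3.58.1 in R 4.3.3 (empirical Bayes, mean-variance trend), with Benjamini-Hochberg adjustment over all of them and a threshold of 0.05. Every adjusted p is from limma. Fits were run on simulated data with independent noise in each library and no clone effect. That check does not cover likeness between replicates of 1 clone. The 4 MSX2-/- libraries were set against 2 WT, without a block as the study's methods name none, and in an alternative with replicate number as blocking factor. The numbers were taken to pair libraries, since deviations from group means of same-numbered libraries correlated at 0.508 (WT and 1#), 0.54 (WT and 2#) and 0.636 (1# and 2#). Interaction, set and clone fits used all 6 libraries. Ratios were tested by exact permutation. The other alternatives were a pseudocount of 0.1, no filter, rescaling by median ratio, a fit of 3 groups, each clone alone and leaving out each library.

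All 10 members were named, with the genes of the wider list called in either fit, its 6 most abundant and the 5 most like NT5E. The members and lists were chosen with earlier results of these data known, and 1 gene of the marker lists is not reported here. Promoter windows come from RefSeq (GRCh38.p14) and gene positions from GENCODE 29, matched by symbol. Coordinates are not in the build of the submitters' notes.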

Additional observations from a re-analysis of the deposited data

Results flagged for a closer look

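The difference of MSX2-/- from WT went opposite ways in the replicates for ADORA2A, where it was lower by 0.55 on the log2 scale in replicate 2 than in replicate 1 (an interaction of −0.55). Both clones were above WT in replicate 1 and both below it in replicate 2. The interaction did not pass (limma, adjusted p = 0.396). SLC29A2 showed the same arrangement, with an interaction of −0.48 (adjusted p = 0.548). No library of the MSX2-/- group stood apart from the other 3 for any of the 10 genes by Dixon's criterion, the widest gap being 0.732 of the range, for NT5E.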

How the results depend on the processing

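The 3 members called between genotypes became 1 when no filter on low values was used, 5 with the replicate block, and 0 in the fit of 3 groups, with 1# alone or with 2# alone. Leaving out 1 library gave 0 to 2. The 1 pathway gene called became 10 with the replicate block and 0 with rescaling, in the fit of 3 groups, with 1# alone or with 2# alone, and 0 to 1 when a library was left out. With no filter the count stayed at 1, but the gene called was not ALPL. Over all genes, 153 were called higher and 51 lower, against 971 and 595 with the replicate block, 65 and 60 when unfiltered, 4 and 2 in the fit of 3 groups, and 1 lower with either clone alone. Unfiltered, the interaction calls over all genes went from 3 lower to 382 higher and 311 lower, and those between replicate 2 and replicate 1 from 2486 higher and 3006 lower to 1613 and 1980. The fits of 3 groups and of single clones have fewer residual degrees of freedom, or fewer libraries, and the filter changes the number of genes tested. With the filter and a pseudocount of 1, the block changed no call among the 10 genes but those of ADA and SLC29A1. With a pseudocount of 0.1 the block also called DPP4 (limma, adjusted p = 0.0486, against 0.298 without it). With no filter the block called ENTPD1 and ADORA1 (limma, adjusted p = 0.0304 and 0.0407), both missed without it. ADA and SLC29A1 were then missed even with the block (0.0551 and 0.107). Directions reversed for 3 genes, none of them called without the block. Of these, SLC29A1 was called with the block, where it kept its direction. ADORA2A was −0.014 with 1# alone, −0.12 to 0.24 when a library was left out, and, with the replicate block, −0.22 without WT replicate 1 and −0.030 without 2# replicate 1. SLC29A1 was −0.19 to 1.06 and SLC29A2 −0.22 to 0.0043 when a library was left out, and SLC29A2 was 0.10 with the replicate block and without WT replicate 2. The cause was not tested. NT5E, ENTPD1 and ADORA1 kept their direction in every alternative run. The fits that combine the replicate block with another choice were chosen after seeing the data.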
